A study of Mus musculus with 6 samples.

Results

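Cyclic nucleotide phosphodiesterases end the signals of cAMP and cGMP by hydrolyzing them, and the gene families differ in which of both nucleotides they accept and in what regulates them. The 8 genes described here, *Pde1a*, *Pde1b*, *Pde1c*, *Pde2a*, *Pde3a*, *Pde3b*, *Pde10a*, and *Pde11a*, encode the families that are not limited to cAMP and can hydrolyze cGMP as well. They were selected on family membership out of the 53715 genes of the deposited table, and the group was chosen by the counts of *Pde10a*, which were known to be lower in *Slc39a8*-NSKO cerebellum. The comparison between the genotypes was thus used in the choice, and it is given for these genes as a description with no test. Of the 8 genes, 7 passed the filter on low counts that left 16330 genes, and *Pde11a* did not.

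The samples were whole cerebella of 3 control and 3 *Slc39a8*-NSKO mice, all male, 4 weeks old, and on a C57BL/6 background, and total RNA was read by RNA-Seq. In the knockouts, a Cre transgene under the *synapsin I* promoter removes floxed *Slc39a8* in neurons, so that cells in which this promoter is silent keep the gene, and the line is known to vary between brain regions. The sample labels call the control mice WT, while the study also speaks of *Slc39a8* fl/fl controls, and no batch is given. *Slc39a8* encodes a transporter that takes up manganese, zinc, and iron.

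PDE1 enzymes are switched on by calcium and calmodulin, so that a rise of calcium lowers cyclic nucleotides. PDE2 is stimulated and PDE3 is held back when cGMP is present, which lets cGMP change the level of cAMP in opposite ways. PDE10A is best known from the medium spiny neurons of the striatum, where it sets the strength of cAMP signaling downstream of dopamine receptors, and PDE11A is the last family to have been described.

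The counts are summed over all transcripts of a gene, and several of these genes have many starts. *Pde10a* (ENSMUSG00000023868.15) spans 461.3 kb of GRCm38, on chromosome 17 between 8525372 and 8986648 (plus strand), and has 14 annotated transcripts, of which 8 are protein-coding with 8 different start positions. The RefSeq promoter table of GRCm38.p6 held 18 windows for 6 of the 8 genes and none for *Pde3a* and *Pde3b*. Each window has 300 bases, 250 before and 50 after a start. The windows were searched on both strands for the cAMP-responsive element, TGACGTCA, the site of the factor CREB that answers to cAMP, and for its first bases TGACG, which are also part of the full element. The *Pde10a* windows are shown because the values turn on this gene and its enzyme acts on cAMP, and a *Pde2a* and a *Pde1a* window are shown for contrast, with TGACG or its reverse complement in capitals.
Pde10a, chr17:8801495-8801794, plus strand: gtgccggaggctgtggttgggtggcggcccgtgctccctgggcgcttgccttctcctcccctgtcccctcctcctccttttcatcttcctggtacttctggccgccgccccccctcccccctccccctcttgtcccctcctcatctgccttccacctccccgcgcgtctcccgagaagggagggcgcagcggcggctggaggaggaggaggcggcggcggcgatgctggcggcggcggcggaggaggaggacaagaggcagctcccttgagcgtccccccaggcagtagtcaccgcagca
Pde10a, chr17:8849735-8850034, plus strand: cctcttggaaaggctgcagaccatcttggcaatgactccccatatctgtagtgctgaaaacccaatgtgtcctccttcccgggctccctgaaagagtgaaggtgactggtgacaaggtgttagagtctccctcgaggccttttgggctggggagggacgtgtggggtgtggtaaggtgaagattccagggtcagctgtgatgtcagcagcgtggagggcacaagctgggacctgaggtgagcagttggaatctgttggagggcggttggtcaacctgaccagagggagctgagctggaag
Pde2a, chr7:101450270-101450569, plus strand: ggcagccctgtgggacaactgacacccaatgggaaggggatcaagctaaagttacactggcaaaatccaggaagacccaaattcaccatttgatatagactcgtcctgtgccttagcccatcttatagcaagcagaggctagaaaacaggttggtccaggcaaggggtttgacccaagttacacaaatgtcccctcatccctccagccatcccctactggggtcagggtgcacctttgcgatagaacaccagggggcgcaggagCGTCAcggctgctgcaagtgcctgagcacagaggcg
Pde1a, chr2:80038853-80039152, minus strand: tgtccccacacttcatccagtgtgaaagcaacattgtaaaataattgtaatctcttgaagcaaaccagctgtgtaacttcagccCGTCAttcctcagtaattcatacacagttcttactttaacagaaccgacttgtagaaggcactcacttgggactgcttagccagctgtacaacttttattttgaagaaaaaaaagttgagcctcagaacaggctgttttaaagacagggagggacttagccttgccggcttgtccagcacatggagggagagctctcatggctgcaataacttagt

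Neither *Pde10a* window held TGACG, and none of the 18 windows held the full element. The first *Pde10a* window had 71.3% G or C and the second had 56.7%. TGACG was in 2 of the 18 windows (11.1%), the *Pde2a* and *Pde1a* windows above, and in 20.8% of the 32851 windows of all genes, while the full element was in 1.79% of them. These matches describe letters in short windows, which do not cover all starts of *Pde10a*, and the deposited counts do not tell which start was used.

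*Pde10a* was lower in *Slc39a8*-NSKO mice, with no overlap. Its counts were 2061, 1555, and 1438 across the controls, against 1571, 1085, and 1140 across the NSKO animals (mice 1 to 3 of each genotype, here and in all later series of 3 values). As CPM, counts scaled to a common library size, this was 99.5, 108, and 92.4 CPM across the controls, against 78.6, 55.7, and 60.6 across the NSKO animals. *Slc39a8*-NSKO mouse 1 lay closest to the control mice, and mice 2 and 3 lay farther below them. The mean in *Slc39a8*-NSKO mice was 65.0% of the control mean, at 65.0 ± 12.1 against 100 ± 7.88 CPM (SD, n = 3 each). The log2 fold change fitted by edgeR was −0.62 with a standard error of 0.104. *Pde10a* was the 1 gene of the 8 past an adjusted p of 0.05 with edgeR. Among all 16330 genes tested, 0.0735% passed as lower and 0.0245% as higher. Nothing is read from this here, since the gene was chosen for the difference. The call was lost without control mouse 2 or 3 and without *Slc39a8*-NSKO mouse 2 or 3, at log2 fold changes of −0.56, −0.67, −0.52, and −0.57. Its fall ranked 10 among the 12 genes that passed as lower, and 291 of all genes tested had a log2 fold change at or below that of *Pde10a*. In whole cerebellum, fewer cells of a type and less RNA per cell cannot be told apart.

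**Figure D1:**
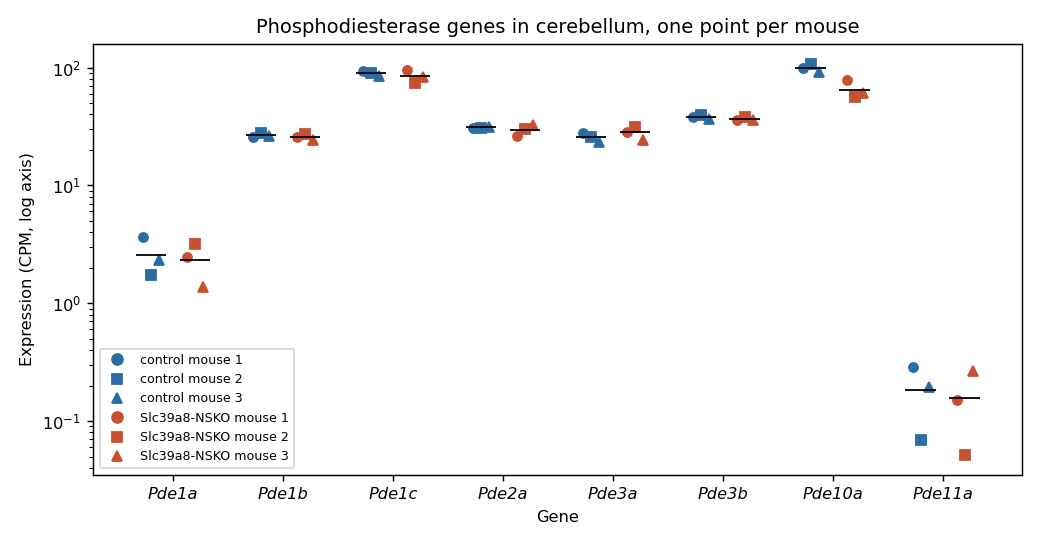
Expression of the 8 phosphodiesterase genes in CPM on a log axis, with 1 point per mouse and a black line at the mean of each genotype. The *Slc39a8*-NSKO points of *Pde10a* (55.7 to 78.6 CPM) all lie below its control points (92.4 to 108 CPM), while the genotypes overlap in the other 7 genes. Heights of different genes are not comparable here, since gene length is not accounted for.

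In the other 7 genes the genotypes overlapped, and *Pde10a* was the 1 gene of the 8 without overlap. Of all genes tested, 10.3% had no overlap, 5.26% with the NSKO values lower and 5.07% with them higher. The 6 fitted genes other than *Pde10a* had log2 fold changes between −0.16 and 0.14. The median over the 7 fitted genes was −0.0699, beside 0.0011 over all genes tested.

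Among the calcium-regulated genes, *Pde1c* is the form long known from granule cells and other neurons of the hindbrain, *Pde1b* is rich in striatum, and *Pde1a* in cortex and hippocampus. *Pde1c* had 94.0, 89.8, and 83.9 CPM across the controls, against 95.1, 74.4, and 83.8 across the NSKO animals. Both the highest and the lowest value came from *Slc39a8*-NSKO mice, and the mouse with the lowest *Pde1c*, mouse 2, also had the lowest *Pde10a*. The log2 fold change of *Pde1c* was −0.08 (standard error 0.0807), which within 2 standard errors reaches from −0.24 to 0.08.

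*Pde1b* had 25.9, 27.7, and 26.2 CPM across the controls, against 25.5, 27.1, and 24.1 across the NSKO animals, and its log2 fold change was −0.06 (standard error 0.0763). Its coefficient of variation was 3.69% between the control and 5.86% between the NSKO mice, so that *Pde1b* was steady within and across the genotypes. *Pde1a* was scarce, with 76, 25, and 36 counts across the controls, against 49, 62, and 26 across the NSKO animals. Its coefficients of variation were 38.6% and 38.7%, and its log2 fold change of −0.16 carried a standard error of 0.322. A difference of *Pde1a* between −0.81 and 0.48 lies within 2 standard errors of this value, a range that includes the value of *Pde10a*. With single mice left out the log2 fold change of *Pde1a* ran from −0.45 to 0.21.

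*Pde2a*, the gene of the cGMP-stimulated enzyme, had 30.7, 30.9, and 31.4 CPM across the controls, against 26.1, 30.1, and 32.4 across the NSKO animals. The control mice were nearly equal, and *Slc39a8*-NSKO mouse 1 was the lowest of all. Its log2 fold change was −0.07 (standard error 0.0832). These values were not all whole counts, because *Pde2a* (chromosome 7, from 101421691 to 101512827) shares 3955 exon bases on the same strand with *Gm45837*, an annotated protein-coding gene that runs into it, and the counting divided reads between both. *Gm45837* was given 112.7, 0, and 0 counts across the controls, against 190.01, 112.7, and 0 across the NSKO animals. In *Slc39a8*-NSKO mouse 1 this was 26.7% of the reads of both genes together, in mouse 2 it was 16.1%, and in control mouse 1 it was 15.0%.

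The sum of *Pde2a* and *Gm45837* was a whole number of counts in each mouse, at 749, 445, and 488 across the controls, against 711, 700, and 610 across the NSKO animals. Scaled to the library sizes, the sum was 36.1, 30.9, and 31.4 CPM across the controls, against 35.6, 35.9, and 32.4 across the NSKO animals. *Slc39a8*-NSKO mouse 1, the lowest for *Pde2a* alone, was no longer low. When both genes were counted as 1, a choice made after the data were seen, the log2 fold change was 0.07 (standard error 0.0796), of the opposite sign to that of *Pde2a* alone. Which gene the shared reads came from was not tested, and the direction of *Pde2a* is uncertain for this reason.

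**Figure D2:**
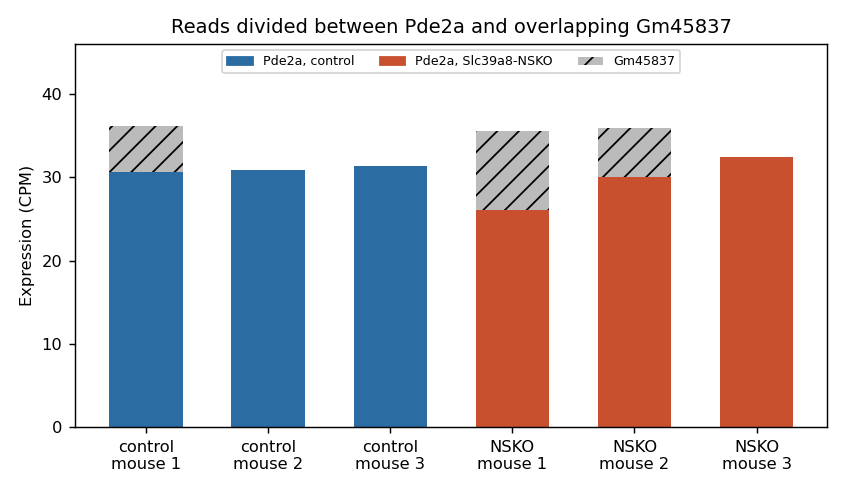
CPM given to *Pde2a* (solid) and to the overlapping *Gm45837* (hatched, stacked on top) in each of the 6 mice. *Gm45837* received reads in control mouse 1 and in *Slc39a8*-NSKO mice 1 and 2 and none in the other mice, and the stacked total runs from 30.9 to 36.1 CPM.

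The PDE3 genes encode the cGMP-inhibited enzymes, of which *Pde3a* is known from heart and vascular muscle and *Pde3b* from fat, liver, and other insulin-responsive cells. *Pde3b* had 38.2, 39.3, and 36.8 CPM across the controls, against 36.0, 38.1, and 35.9 across the NSKO animals, a log2 fold change of −0.06 (standard error 0.0659). It varied least between the mice of a genotype when both genotypes are considered, with coefficients of variation of 3.25% and 3.38%. *Pde3a* had 27.8, 25.6, and 23.3 CPM across the controls, against 28.6, 31.5, and 24.4 across the NSKO animals. Its log2 fold change was 0.14 (standard error 0.0987) and ran from 0.05 to 0.23 with single mice left out. The genotypes overlapped, since *Slc39a8*-NSKO mouse 3 lay below control mice 1 and 2.

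*Pde3a* shares 741 exon bases with *Gm28523*, an antisense gene, and counts were divided between them in all 6 mice. Counted together, a choice made after the data were seen, they had a log2 fold change of 0.08 ± 0.0932 (SE). Whether the counting used the strand is not given in the sources used here. The sum of both was whole in each mouse, at 657, 443, and 431 counts across the controls, against 630, 699, and 525 across the NSKO animals. Reads were thus divided between genes on opposite strands, which counting by strand would not do. Beside *Pde3a*, the summed CPM of 10 heart muscle markers ran from 3.53 to 6.19 in control and from 15.5 to 17.8 in *Slc39a8*-NSKO mice, and 3 of the 7 tested markers (*Myh6*, *Actc1*, and *Tnnt2*) passed as higher, as did 0.0245% of all genes tested. These 3 had 0 to 15 counts in control mice, each below 10 in some control mouse. They passed the filter on low counts through the *Slc39a8*-NSKO mice, where they were high, so that nothing is read from their calls. With at least 10 counts required in every mouse 0 higher genes were left, but that filter removes these 3 untested and cannot check them. *Myl3* and *Myl7* had 0 counts in all control mice, against 8, 20, and 16 and 3, 3, and 2 across the NSKO animals. *Myh7* lay the other way and did not pass the filter, with 14, 12, and 6 counts across the controls, against 3.17, 10.1, and 5 across the NSKO animals. *Tnni3* and *Pln* had log2 fold changes of 0.27 and 0.29. Smooth muscle and pericyte markers summed to between 121 and 132 CPM in control and between 118 and 136 CPM in *Slc39a8*-NSKO mice. The part of these cells in the *Pde3a* values was not tested.

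*Pde11a* was close to absent, with 6, 1, and 3 counts across the controls, against 3, 1, and 5 across the NSKO animals. It had reads in all 6 mice but did not pass the filter, so that no fold change is given.

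Levels of different genes were compared per length, in CPM per kilobase of annotated exon. In control mice *Pde10a* was highest, at 7.78 ± 0.613 (SD, n = 3), and its lowest control mouse was above the highest control mouse of every other gene of the group. *Pde2a* (5.04 ± 0.0545), *Pde1b* (4.93 ± 0.182), *Pde1c* (4.45 ± 0.254), and *Pde3b* (4.18 ± 0.136) followed in this order. Of these neighbours, *Pde2a* and *Pde1b* overlapped, as did *Pde1c* and *Pde3b*, while *Pde1b* and *Pde1c* did not. *Pde3a* was lower, at 2.01 ± 0.176, and *Pde1a* (0.428 ± 0.165) and *Pde11a* (0.0353 ± 0.0212) were far below the rest.

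In *Slc39a8*-NSKO mice *Pde10a* averaged 5.06 ± 0.941 CPM per kilobase (SD, n = 3). It ranged from 4.34 to 6.12 there, which overlapped *Pde2a* (4.24 to 5.27), *Pde1b* (4.46 to 5.01), and *Pde1c* (3.71 to 4.74). *Pde10a* thus stood apart from the next genes in control but not in *Slc39a8*-NSKO cerebellum. The order depends on the length used, since *Pde1c* has 20067 exon bases in all but 8766 in its longest transcript. With the longest transcript, *Pde10a* stayed first at 12.9 and *Pde1c* was second at 10.2 CPM per kilobase in control mice. In *Slc39a8*-NSKO mice this length puts *Pde1c* above *Pde10a* in each mouse. *Pde1c* had 95.1, 74.4, and 83.8 CPM there over 8766 bases, and *Pde10a* had 78.6, 55.7, and 60.6 CPM over 7769 bases.

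**Figure D3:**
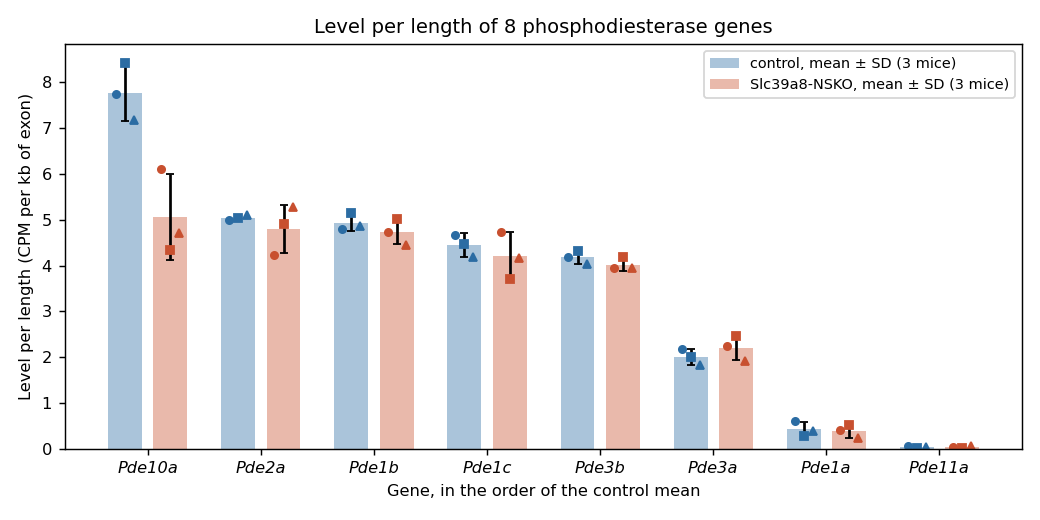
Level per length (CPM per kilobase of exon) of the 8 genes, ordered by the control mean. Bars show the mean and error bars the SD of 3 mice, and circles, squares, and triangles show mice 1, 2, and 3. *Pde10a* is highest in control mice (7.19 to 8.42) and reaches into the range of its neighbours in *Slc39a8*-NSKO mice (4.34 to 6.12).

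On the same per-length scale, the 8 genes summed to 29.3, 29.7, and 27.6 across the controls, against 26.5, 25.2, and 24.8 across the NSKO animals, so that the sums did not overlap. *Pde10a* made up 26.5%, 28.3%, and 26.0% of this sum in control mice and 23.1%, 17.2%, and 19.0% in *Slc39a8*-NSKO mice. Without *Pde10a* the sums overlapped, at 21.5, 21.3, and 20.4 across the controls, against 20.3, 20.8, and 20.0 across the NSKO animals. The share of the 3 PDE1 genes averaged 34.0% ± 0.576 for the controls and 36.6% ± 0.771 for the NSKO mice (SD, n = 3 each), a share that also rises when another gene of the sum falls.

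The other cyclic nucleotide genes were followed in 7 lists of 83 genes, of which 60 were tested. With edgeR, 0 of the 60 passed an adjusted p of 0.05 in either direction and 0 had an unadjusted p below 0.05, against 0.098% and 5.39% of all genes tested. DESeq2 tested 80 list genes and passed 0, with 1 unadjusted p below 0.05, beside 533 of 27181 genes in all. Limma-voom passed 0, with 0, beside 875 of 16330 genes in all. The number with an unadjusted p below 0.05 moved to 9 of 62 list genes without control mouse 1, beside 1429 of 16621 genes in all. It was 4 of 62 without control mouse 2 (723 of 16700 in all) and 4 of 60 with the replicate block (1215 of 16330). In each of these refits 0 list genes were past the threshold. The log2 fold changes of the 60 genes ran from −0.21 to 0.7, with a median of 0.0398.

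Of the 8 cAMP-specific phosphodiesterases, 8 were tested and 0 passed, with log2 fold changes between −0.16 and 0.17. The genes of this list with the most reads were *Pde4b*, *Pde4a*, and *Pde7a*. *Pde4b* had 73.1, 71.8, and 70.0 CPM across the controls, against 77.0, 69.3, and 73.6 across the NSKO animals, or 0.03 as log2 fold change (standard error 0.0598; edgeR adjusted p = 0.994). *Pde4a* differed by a log2 value of 0.03 (standard error 0.0634) and *Pde7a* by one of 0.01 (standard error 0.111). The per-length sums of the whole list averaged 26.8 ± 0.594 and 27.1 ± 0.752 (control and NSKO, SD, n = 3 each).

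Of the 8 genes of cGMP-specific phosphodiesterases and PDE6 subunits, 4 were tested and 0 passed. *Pde5a*, *Pde9a*, and the PDE6 subunit gene *Pde6d* took the most reads. *Pde5a*, which is strong in Purkinje cells, had 79.3, 69.7, and 73.1 CPM across the controls, against 80.1, 84.1, and 73.0 across the NSKO animals, or 0.09 as log2 fold change (standard error 0.069; edgeR adjusted p = 0.994). *Pde9a* differed by a log2 value of 0.06 (standard error 0.0743) and *Pde6d* by one of 0.08 (standard error 0.0681).

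**Figure D4:**
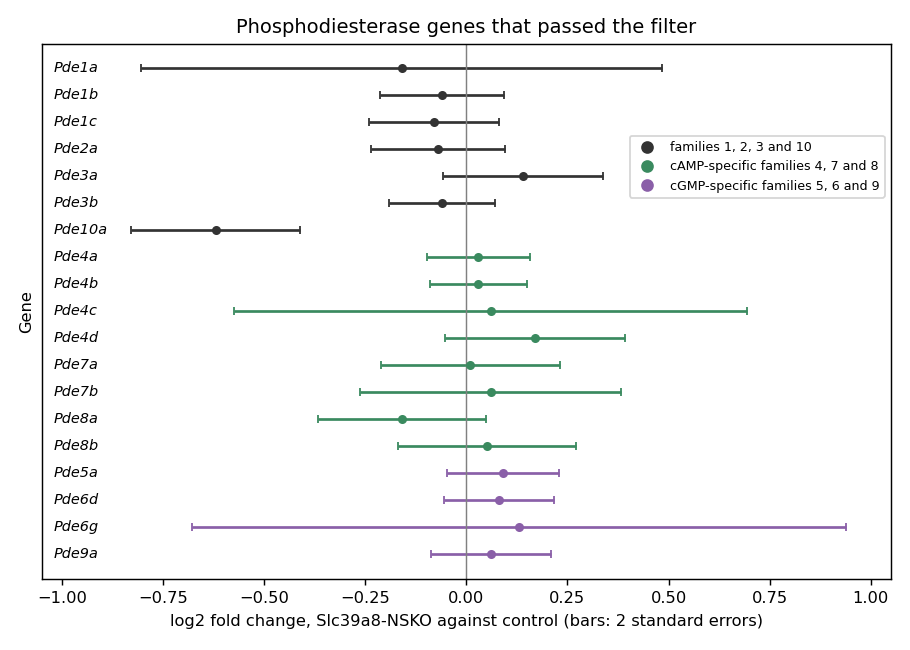
Log2 fold change between *Slc39a8*-NSKO and control mice for the 19 genes of phosphodiesterases and PDE6 subunits that passed the filter, with bars of 2 standard errors on each side. *Pde10a* lies at −0.62 with its bar from −0.83 to −0.41, and the bars of the other genes include 0.

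On the side of cGMP synthesis, 10 of 17 genes were tested and 0 passed. *Nos1*, the nitric oxide synthase of neurons, had a log2 fold change of 0.07 ± 0.112 (SE). The soluble guanylyl cyclase subunit gene *Gucy1b1* had one of 0.06 (standard error 0.0634), and the natriuretic peptide receptor gene *Npr2* one of 0.02 (standard error 0.0804). Of the 10 genes that act downstream of cGMP, 3 were tested and 0 passed. *Prkg1*, the cGMP-dependent kinase of Purkinje cells, had a log2 fold change of 0.11 ± 0.136 (SE), *Mrvi1*, a substrate of that kinase, one of −0.19 (standard error 0.311), and *Prkg2* one of 0.04 (standard error 0.406).

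Of the 15 genes of calmodulin and its binding regulators, 14 were tested and 0 passed. *Calm2* and *Calm3*, which encode the calmodulin that switches on PDE1, had log2 fold changes of −0.03 and 0.05 (standard errors 0.0563 and 0.0517). Among the adenylyl cyclases, which make cAMP, 9 of 10 were tested and 0 passed. *Adcy1*, the calcium-stimulated cyclase of granule cells, had 2170, 1690, and 1880 CPM across the controls, against 2280, 1880, and 2000 across the NSKO animals (log2 fold change 0.10 ± 0.0855, SE, with an edgeR adjusted p = 0.994). *Adcy5* and *Adcy6* had log2 fold changes of 0.13 (standard error 0.0695) and −0.07 (standard error 0.0654). Of the 15 genes of cAMP effectors, 12 were tested and 0 passed. The kinase subunit genes *Prkar1a*, *Prkar1b*, and *Prkacb* had log2 fold changes of −0.02, 0.07, and 0.06 (standard errors 0.0521, 0.0506, and 0.0676).

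The genes whose values over the 6 mice were most like those of *Pde10a* were sought among 11716 genes with a mean of at least 5 CPM, by the root mean square difference of log2 CPM after each gene's mean was subtracted. This measure contains the difference between the genotypes and the order of the mice, so that genes that share either with *Pde10a* come first. The nearest was *Slc2a13*, the gene of an inositol transporter, with a difference of 0.0644 and values of 59.0, 58.1, and 49.7 CPM across the controls, against 45.5, 33.5, and 35.0 across the NSKO animals. *Creb5*, the gene of a factor that binds cAMP-responsive elements, followed with a difference of 0.0673, and had 16.1, 17.4, and 15.4 CPM across the controls, against 12.1, 9.81, and 10.2 across the NSKO animals. In both genes *Slc39a8*-NSKO mouse 1 was nearest to the controls.

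*Zmym1* (difference 0.148), the immediate-early gene *Egr4* (0.155), and *Spry4* (0.171), an inhibitor of growth factor signaling, came next. Their log2 fold changes were −0.37, −0.71, and −0.50. All 5 genes were lowest in *Slc39a8*-NSKO mouse 2, as was *Pde10a*, an order that the choice by likeness favours.

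**Figure D5:**
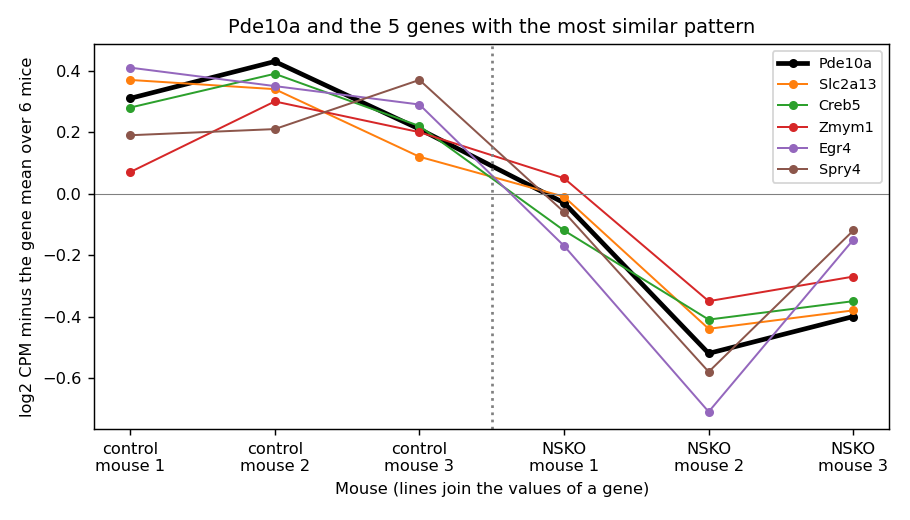
Log2 CPM minus the mean of the gene over the 6 mice, for *Pde10a* (thick black line) and the 5 genes with the smallest root mean square difference from it (0.0644 to 0.171). Each line joins the values of 1 gene, and all 6 genes are lowest in *Slc39a8*-NSKO mouse 2.

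The targeted gene *Slc39a8* had 99, 46, and 44 counts across the controls, against 38, 40, and 41 across the NSKO animals (log2 fold change −0.83 ± 0.237, SE, with an edgeR adjusted p = 0.534). Counts on genes ranged from 14431260 to 20844267 per mouse. Markers of cerebellar neurons were abundant, with granule cell markers at 6520 to 6750 CPM in control and 6500 to 7060 CPM in *Slc39a8*-NSKO mice and Purkinje cell markers at 8360 to 9510 and 9220 to 9870 CPM. Of the 10 striatal markers, *Ppp1r1b*, *Penk*, and *Syndig1l*, which are not limited to striatum, carried most reads, and the whole list summed to 348 to 371 CPM in control and 351 to 398 CPM in *Slc39a8*-NSKO mice. Beside *Pde10a*, the defining striatal genes *Drd1* and *Gpr6* had 2 to 8 and 0 to 1 counts over the 6 mice. *Drd2* was also scarce but did not overlap, with 6, 8, and 4 counts across the controls, against 12, 14, and 16 across the NSKO animals (edgeR adjusted p = 0.908), and *Rgs9* did not overlap as CPM either (log2 fold change 0.48, edgeR adjusted p = 0.954). *Adora2a*, with 32 to 59 counts, had a log2 fold change of −0.16. Of 13 marker lists, 3 had sums that did not overlap between the genotypes, all higher in *Slc39a8*-NSKO mice, namely heart muscle (above), Bergmann glia and astrocytes (2430 to 2790 against 2830 to 2860 CPM), and microglia (119 to 133 against 139 to 141 CPM). The sums of the other 10 lists overlapped. Heart muscle was the 1 list with a gene past the threshold, from which nothing is read, as said above. Single genes differed more than these sums, such as *Folr1* of the choroid plexus list, whose median log2 fold change was 0.352 (*Folr1* 0.96, edgeR adjusted p = 0.228), and *Eomes* of the unipolar brush cell list (log2 fold change −0.63, edgeR adjusted p = 0.857). Their part in the *Pde10a* values was not tested.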

How the data were processed

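Cerebellar RNA of 3 control and 3 *Slc39a8*-NSKO mice was measured by paired-end RNA-Seq from oligo-dT cDNA. The labels name a directional library kit, the study's methods the kit without that word. The authors deposited expected counts per gene and mouse, not scaled for library size or gene length. The submitters' processing notes name FastQC, STAR, RSEM, DESeq2, and mm10, with no versions. Groups were taken from the sample labels, and the mice were treated as biological replicates, as the study's methods state, although a legend speaks of technical triplicates.

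Here the 92 spike-in rows were removed, names and exon lengths were taken from GENCODE M21 (GRCm38), in which 53620 of 53715 genes were found, and the counts were rounded and fitted with edgeR 4.0.16 in R 4.3.3 (TMM, filterByExpr, glmQLFit, glmQLFTest, Benjamini-Hochberg over 16330 genes, threshold 0.05). Alternatives were RLE or library size scaling, other filters, DESeq2 1.42.0, limma-voom (limma 3.58.1), a replicate block, and each mouse left out. The fits were tested on simulated counts. Genes named beside the 8 are the 3 with the highest mean CPM in each pathway list, the 5 likest *Pde10a*, and *Slc39a8*. Of the pathway genes under this rule, 1 is not reported here. Overlapping genes, *Drd1*, *Drd2*, *Gpr6*, *Ppp1r1b*, *Penk*, *Syndig1l*, *Rgs9*, *Adora2a*, *Myl3*, *Myl7*, *Myh7*, *Tnni3*, *Pln*, *Folr1*, *Eomes*, *Nppa*, and *Nrgn* lie outside that rule and were added once their values had been seen. The genes, lists, and tests were chosen with earlier results of these data known.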

Additional observations from a re-analysis of the deposited data

How the results depend on the processing

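The log2 fold changes of the 7 fitted phosphodiesterase genes moved by less than the SD between mice in 91 of 91 values from 13 planned refits. This yardstick could hardly be exceeded, since leaving out a single mouse shifts a group mean by less than the SD of that group. The other refits changed only the scaling, filter, or model on the same counts. No stability is therefore read from the 91 values, and the ranges are given instead. *Pde10a* ranged from −0.78 (without *Slc39a8*-NSKO mouse 1) to −0.52 (without *Slc39a8*-NSKO mouse 2). No call is given for *Pde10a* in these refits, since the gene was chosen for the difference. *Pde1a*, with the fewest counts, ranged from −0.45 to 0.21. Adding *Gm45837* turned *Pde2a* to 0.07, and leaving out *Pde10a* took the log2 ratio of the summed per-length level from −0.18 to −0.05. With the longest transcript as length, the control levels were 12.9 (*Pde10a*), 10.2 (*Pde1c*), 7.35 (*Pde2a*), 6.32 (*Pde1b*), 5.8 (*Pde3b*), and 0.604 (*Pde1a*) CPM per kilobase.

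Over all genes, 16 genes passed the threshold, 12 lower and 4 higher. No filter passed 178 of 27187 genes (112 lower, 66 higher) and 2 of 80 pathway list genes. DESeq2 passed 37 (29 and 8), and limma-voom passed 2 higher genes. At least 10 counts in every mouse left 0 higher genes (840 genes at an unadjusted edgeR p below 0.05 in either direction). With each mouse left out, 9 (without *Slc39a8*-NSKO mouse 2) to 38 genes (without control mouse 1) passed, 7 to 27 lower and 2 to 11 higher, and 0 pathway list genes. The replicate block passed 41 genes (32 and 9). Deviations of same-numbered mice correlated at 0.1668, 0.129, and 0.0107, and not every mouse correlated best with its own number, so that the numbers are not taken as pairs.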

Other observations

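With no filter on low counts, 2 of 80 pathway list genes passed the threshold of edgeR's quasi-likelihood test, both higher in *Slc39a8*-NSKO cerebellum. In that fit 178 of 27187 genes passed, against 16 of 16330 with the filter. *Nppa*, the gene of atrial natriuretic peptide, a heart hormone that raises cGMP, had 0, 0, and 1 counts across the controls, against 12.12, 7, and 9.93 across the NSKO animals (adjusted p = 0.0119). It was not among the genes tested with the filter. Beside it, the summed CPM of the heart muscle markers ran from 3.53 to 6.19 in control and from 15.5 to 17.8 in the same NSKO mice, and the part of such cells in the *Nppa* counts was not tested. *Nrgn*, a calmodulin-binding protein of forebrain neurons, had 67, 69, and 37 counts across the controls, against 68, 56, and 200 across the NSKO animals (adjusted p = 0.0379), so that its value rests on *Slc39a8*-NSKO mouse 3. With the filter its adjusted p was 0.982.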
